A study of Rattus norvegicus with 20 samples.

Results

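The genes examined here encode subunits of the mitochondrial respiratory chain (complexes I to IV) and of ATP synthase (complex V), in the left ventricle of a failed and a normal heart of Dahl rats. They were chosen by gene symbol alone: Nduf genes with a subunit letter and number for complex I, Sdha to Sdhd for complex II, Uqcr genes for complex III, Cox4 to Cox8 genes for complex IV and Atp5 genes for complex V. This gave 79 of the 14217 genes on the arrays, with 35 in complex I, 4 in complex II, 7 in complex III, 17 in complex IV and 16 in complex V. The symbols also admit the pseudogene Cox6c-ps1 and the ATP synthase inhibitor Atp5if1. Ndufa4 was kept in complex I by its symbol, although its protein is now known as a subunit of complex IV. A further 7 probe sets list a subunit gene together with another gene and were left out.

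Dahl rats are lines bred for how their blood pressure responds to dietary salt. The labels do not say which line was used. The failed heart is labelled as congestive heart failure, and a high-sodium diet is named for its mRNA sample alone. The normal heart is the other group, and the labels give 19 weeks for both hearts on every sample other than the normal H4ac one. Each heart had 10 Affymetrix rat expression arrays, for mRNA, genomic DNA before immunoprecipitation (pre-IP) and chromatin immunoprecipitates of 8 histone marks. The marks were acetylated H3 (H3ac) and H4 (H4ac), di- and trimethylated K4 (K4me2, K4me3) and K9 (K9me2, K9me3), trimethylated K20 (K20me3) and dimethylated K27 (K27me2), with no histone named for the methylated lysines. The mRNA is labelled as left ventricular myocytes. A single ventricle specimen went into each experiment, and the labels do not state whether the assays of 1 heart came from the same piece. The normal H4ac array names pre-IP DNA as its source but acetylated H4 in its other labels, and was used as H4ac. There was 1 array per assay and heart, so no value here has an error, a replicate check or a p-value, and every difference compares 2 arrays, not 2 conditions.

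Electrons from NADH enter the chain at complex I and electrons from succinate at complex II, which is also an enzyme of the citrate cycle. Complex III passes them through cytochrome c to complex IV, which reduces oxygen. Complexes I, III and IV pump protons across the inner membrane, and the ATP synthase uses the returning protons to make ATP, which a beating heart consumes without pause. The subunits measured here are encoded in the nucleus, while a small set is encoded in mitochondrial DNA. Several complex IV subunits exist as a pair of isoforms, of which rodent heart and skeletal muscle use their own forms, Cox6a2, Cox7a1 and Cox8b. Many promoters of nuclear subunit genes are known to be bound by NRF1, by the ETS factor GABP, by YY1 and by estrogen-related receptors.

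The promoters of the muscle isoforms held fewer CG dinucleotides than those of most other members, and 6 promoters are shown to make that difference visible. Promoter windows of 300 bases, 250 before and 50 after the transcription start, came from RefSeq on build GRCr8 and were found for 71 of the 79 members. The stretch printed runs from 200 bases before to 30 after the start, 5′ to 3′ along the gene, and capitals mark a match on either strand to a motif searched. The motifs were CCGGAAG (ETS), GCGCATGCG (NRF1), AAGATGGCG (YY1), TCAAGGTCA (estrogen-related receptor) and TATAAA. The first 3 promoters belong to the muscle isoforms Cox8b (chr1:205408244-205408473, minus strand), Cox6a2 (chr1:192219687-192219916, minus strand) and Cox7a1 (chr1:94569016-94569245, plus strand). The next 2 belong to the widely expressed isoforms Cox8a (chr1:213833594-213833823, minus strand) and Cox4i1 (chr19:65630183-65630412, plus strand). The last is that of the complex I accessory subunit Ndufa6 (chr7:115750288-115750517, minus strand), shown for its histone marks.
Cox8b: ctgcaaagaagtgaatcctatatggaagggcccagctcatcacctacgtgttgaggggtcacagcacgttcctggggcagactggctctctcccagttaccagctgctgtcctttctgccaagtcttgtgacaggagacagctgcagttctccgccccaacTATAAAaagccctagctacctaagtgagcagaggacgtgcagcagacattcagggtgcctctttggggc
Cox6a2: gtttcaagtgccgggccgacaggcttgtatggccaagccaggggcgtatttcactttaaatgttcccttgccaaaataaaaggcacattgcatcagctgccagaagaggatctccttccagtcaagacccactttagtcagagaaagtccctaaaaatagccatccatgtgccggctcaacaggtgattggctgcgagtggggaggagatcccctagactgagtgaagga
Cox7a1: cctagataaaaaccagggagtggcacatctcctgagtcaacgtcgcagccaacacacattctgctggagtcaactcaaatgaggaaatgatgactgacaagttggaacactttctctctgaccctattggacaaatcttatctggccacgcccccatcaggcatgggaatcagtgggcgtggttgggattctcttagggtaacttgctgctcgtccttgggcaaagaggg
Cox8a: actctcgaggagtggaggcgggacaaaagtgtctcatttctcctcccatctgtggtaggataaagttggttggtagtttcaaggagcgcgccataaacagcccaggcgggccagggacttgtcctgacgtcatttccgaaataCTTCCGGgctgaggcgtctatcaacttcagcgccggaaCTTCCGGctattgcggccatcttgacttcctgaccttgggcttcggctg
Cox4i1: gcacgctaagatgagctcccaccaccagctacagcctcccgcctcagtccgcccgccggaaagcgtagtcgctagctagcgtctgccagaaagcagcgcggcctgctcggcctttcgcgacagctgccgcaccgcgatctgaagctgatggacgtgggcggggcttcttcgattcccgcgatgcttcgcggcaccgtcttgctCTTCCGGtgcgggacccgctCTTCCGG
Ndufa6: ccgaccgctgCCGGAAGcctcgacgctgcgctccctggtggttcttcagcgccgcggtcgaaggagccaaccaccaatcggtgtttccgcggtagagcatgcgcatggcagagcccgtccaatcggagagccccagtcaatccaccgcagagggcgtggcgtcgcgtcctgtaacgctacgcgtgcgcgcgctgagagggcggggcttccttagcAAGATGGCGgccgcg

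The windows of Cox8b and Cox6a2 held 5 CG dinucleotides each and that of Cox7a1 held 6. Those of Cox8a, Cox4i1 and Ndufa6 held 16, 38 and 36. The median over the 71 members was 20, against 7 over all 33469 promoters and 23 over the 1182 promoters of genes in the top 10% of mRNA level. Low CG content was not particular to the muscle forms, since the windows of Cox6b1 and Cox7b, both widely expressed, held 6 each. CCGGAAG was found in 20 members (28.2%), against 8.75% of all promoters and 16.4% of those in the top 10%. Cox8a and Cox4i1 each held this motif at 2 places. No muscle isoform held it, but neither did most members (51 of 71), among them the widely expressed Cox6b1 and Cox7a2l. AAGATGGCG was found in 10 members (14.1%), against 1.73% of all promoters and 4.48% of the top 10%. GCGCATGCG was found in 5 members (7.04%, against 1.52% and 3.72%) and TCAAGGTCA in 2, Sdhd and Atp5mc3 (2.82%, against 0.433% and 0.338%). TATAAA was found in 8 members, among them Cox8b just upstream of its start, a share of 11.3% against 14.2% and 8.46%. In Ndufa6 the AAGATGGCG match lies just after the transcription start. A match is a run of letters and not a binding site.

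In the mRNA, subunit genes as a group were higher in the failed heart, and complex IV held the widest contrast between its members. Values are array intensities rescaled so that each array has a median of 100 over its probe sets, and differences are log2 failed minus log2 normal. The median member had 4573 in the failed heart and 2394 in the normal heart. The median of the members' differences was 0.84, against 0.15 over all genes and 0.54 over the 1422 genes in the top 10% of mean mRNA level, which held 65 of the members (82.3%). The difference was above 0 for 73 of 79 members, against 57.4% of all genes and 79.9% of the top 10%. Of 76 members with a mean mRNA level at or above the median of all probe sets, 30 were at least 2-fold higher in the failed heart, against 11.8% of all genes that passed the same filter. Within the top 10% these were 27 of 65 members, against 23% of its genes, and 0 were 2-fold lower, against 0.703%. Only Cox4i2 was at least 2-fold lower (1.32%, against 3.14% of genes passing), and its failed value lay below the array median. Ndufb8, Cox7b2 and Cox6b2 did not reach the level and were not counted.

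The size of this shift depends on how the arrays are put on a common scale. Without rescaling the medians, 14 members were at least 2-fold higher, and after quantile normalization, which gives all arrays the same distribution, 1 was. When both mRNA arrays were centred on the top 10%, a choice made after seeing the data, 6 were higher and 2 lower. The shares of all genes on these other scales are not given here, so these counts cannot be set against a background. The median difference of all genes was 0.15 as rescaled, -0.08 as deposited and 0.01 after quantile normalization, and that of the members 0.84, 0.57 and 0.27. The members' median thus lay above that of all genes on each of these scales. After quantile normalization 63 of 79 members were above 0, a count that also has no share of all genes beside it. On that scale Uqcr11, Sdhc, Cox7a2l and Atp5me, all above 0 as rescaled, were at -0.53, -0.06, -0.04 and -0.23.

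**Figure D1:**
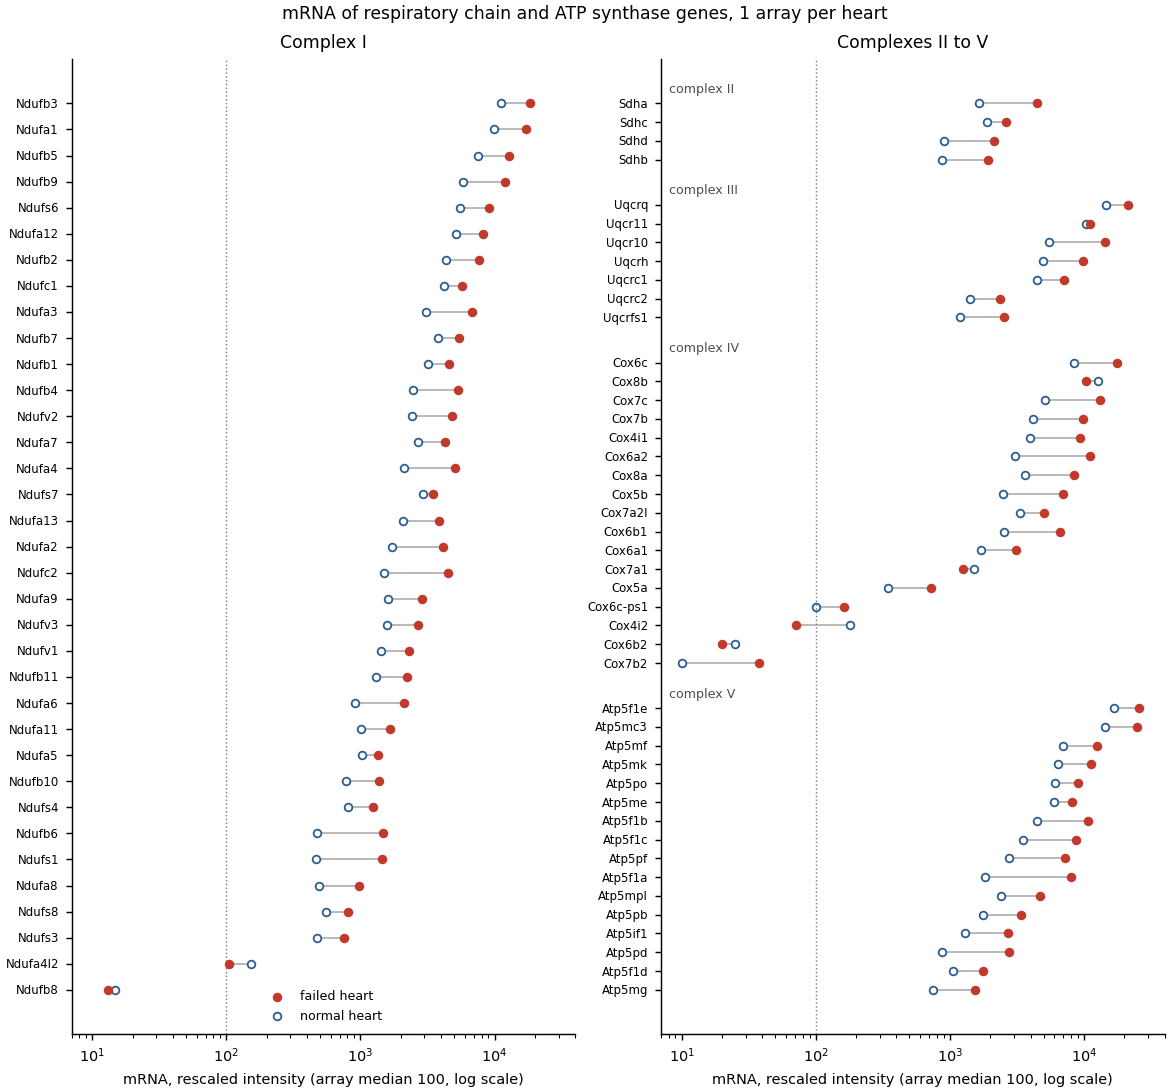
mRNA level of each of the 79 genes in the failed heart (filled) and the normal heart (open), as rescaled intensity on a log axis with the array median of 100 dotted, complex I on the left and complexes II to V on the right. Most filled points lie to the right of the open ones, while Cox8b, Cox7a1, Cox4i2, Cox6b2, Ndufa4l2 and Ndufb8 lie to the left.

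In complex I, 34 of 35 members passed the level filter, with a median difference of 0.77 over the complex. Of those passing, 9 were at least 2-fold higher in the failed heart. This share of 26.5% was above the 11.8% of all genes passing but near the 23% of the top 10%. Ndufs1, the iron-sulfur subunit of the NADH-oxidising arm, had 1458 in the failed and 468 in the normal heart, a difference of 1.64. The accessory subunit Ndufb6 had 1463 in the failed and 475 in the normal heart, a difference of 1.62. These were the largest differences of the complex. The 6 measured core subunits, which carry the flavin and the iron-sulfur clusters, had a median difference of 0.69. The other 29 genes with a complex I symbol had one of 0.77. Most are accessory subunits, which surround and stabilise the core, but Ndufa4 and its relative Ndufa4l2 are counted among them by symbol. Within the core the spread was wide. Ndufv1, which binds the flavin and NADH, had 2309.6 in the failed and 1419 in the normal heart, a difference of 0.70. Ndufs7, a core subunit near the quinone site, had 3465 and 2945, a difference of 0.23, the smallest among core subunits. Ndufs8, another core iron-sulfur subunit, had 808 and 556, a difference of 0.54.

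Ndufa4l2, a Ndufa4 relative known to be induced by low oxygen in other cells, was placed in complex I by its symbol alone. Among the genes so placed, it was the only one past the level filter with a negative difference. It had 105 in the failed and 153 in the normal heart, a difference of -0.55. Ndufa4 itself had 5035 and 2098, a difference of 1.26. Ndufb8 had 13.1 and 14.8 and was dim on both mRNA arrays. With Ndufa4 moved to complex IV, the median difference was 0.77 in complex I and 1.13 in complex IV.

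Complex II had the highest median difference of the 5 complexes, 1.18, over 4 genes, but not when the probe sets of a gene were averaged, where it was 0.91 and that of complex IV 1.05. Sdha, the flavoprotein that oxidises succinate, had 4493 in the failed and 1650.4 in the normal heart, a difference of 1.44. Sdhb, the iron-sulfur subunit, had 1929 and 882, a difference of 1.13. Of the membrane anchors, Sdhd had 2125 in the failed and 907 in the normal heart, a difference of 1.23. Sdhc had 2609 in the failed and 1895 in the normal heart, a difference of 0.46. Of the 4 genes, 3 thus reached 2-fold (75%, against 11.8% of all genes passing and 23% of the top 10%). A share over so few genes is coarse. A second probe set of Sdhd gave 1354 and 1203, a difference of 0.17, so that the Sdhd value rests on the brighter of its probe sets.

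In complex III, 2 of 7 members were at least 2-fold higher and the median difference was 0.72. This share of 28.6% was above the 11.8% of all genes passing but near the 23% of the top 10%. Uqcr10, a small accessory subunit, had 14277 in the failed and 5526 in the normal heart, a difference of 1.37. Uqcrfs1, the Rieske iron-sulfur protein that takes an electron from quinol, had 2556 and 1201, a difference of 1.09. Uqcrh, the hinge protein that links cytochrome c1 to cytochrome c, had 9930.0 and 4975, just under 2-fold. At the other end, Uqcr11 had 11150.1 in the failed and 10303 in the normal heart, a difference of 0.11, the smallest of the complex. Uqcrq, which lies next to cytochrome b, had 21347 and 14569, a difference of 0.55. The core proteins Uqcrc1 and Uqcrc2 differed by 0.66 and 0.72.

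In complex IV, 9 of the 15 members past the filter were at least 2-fold higher (60%, against 11.8% of all genes passing and 23% of the top 10%). Only 1, Cox4i2, was lower (6.67%, against 3.14% of all genes passing and 0.703% of the top 10%). Its failed value lay below the array median. The median difference of the complex was 1.05. The muscle isoforms did not move together. Cox6a2, the muscle form of subunit VIa, had 11114 in the failed and 3053 in the normal heart, a difference of 1.86, the largest of the complex among genes past the filter. Cox7a1, the muscle form of subunit VIIa, had 1248 in the failed and 1515 in the normal heart, a difference of -0.28. Cox8b, the muscle form of subunit VIII, had 10309.8 and 12695, a difference of -0.30. The differences of Cox7a1 and Cox8b were negative on every scale tried, Cox8b reaching -1.09 after quantile normalization, but as rescaled they are small, and with 1 array per heart no spread is known to set them against.

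The 5 widely expressed isoforms were higher in the failed heart, 4 of them also after quantile normalization, where Cox7a2l was not. Cox8a, the widely expressed partner of Cox8b, had 8399 in the failed and 3637 in the normal heart, a difference of 1.21. Cox4i1, the main form of subunit IV and a site where ATP acts on the enzyme, had 9329 and 3998, a difference of 1.22. Cox6b1, a subunit on the intermembrane face, had 6692 and 2532, a difference of 1.40. Cox6a1, the partner of Cox6a2, had 3104 and 1720.2, a difference of 0.85. Cox7a2l, a relative of subunit VIIa that joins complexes III and IV into supercomplexes, had 5061 and 3366, a difference of 0.59. The median difference was -0.28 over the 3 muscle forms and 1.21 over these 5 widely expressed ones. The levels of different genes cannot be ranked against each other on these arrays, because the brightness of a probe set also depends on its probes.

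Cox4i2, the form of subunit IV known from lung and low oxygen, had 71.1 in the failed and 181 in the normal heart, a difference of -1.35. It was the lowest difference of all members. Cox6b2 and Cox7b2, both known from testis, were dim. Cox6b2 had 19.97 in the failed and 25.2 in the normal heart, a difference of -0.33. Cox7b2 had 37.7 in the failed heart and stood at the floor of 10 in the normal heart, so it has no fold. Of the complex IV subunits with no isoform pair, Cox5b, the zinc-binding subunit Vb, had 6940.3 in the failed and 2503 in the normal heart, a difference of 1.47.

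In complex V, all 16 members passed the filter and were higher in the failed heart (14 of 16 after quantile normalization). Of the 16, 7 were at least 2-fold higher (43.8%, against 11.8% of all genes passing and 23% of the top 10%). The median difference was 0.95. The 5 F1 subunits, which form the catalytic head and its stalk, had a median difference of 1.28. Atp5f1a, the alpha subunit, had 8072 in the failed and 1833 in the normal heart, a difference of 2.14, the largest of all members. Atp5f1b, the beta subunit that carries the catalytic site, had 10816 and 4467, a difference of 1.28. Atp5f1e, the small epsilon subunit, had 25666 and 16878, a difference of 0.60. The alpha and beta subunits, present in equal number in the enzyme, thus differed in the size of their mRNA difference.

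The 10 complex V members outside F1 and the inhibitor, which make up the membrane part and the outer stalk, had a median difference of 0.89. Atp5pd, the stalk subunit d, had 2746 in the failed and 879 in the normal heart, a difference of 1.64. Atp5mc3, 1 of 3 genes for the ring subunit c that turns with the proton flow, had 25058 and 14397, a difference of 0.80. Atp5me, subunit e, which helps the enzyme form dimers, had 8221 and 5977, a difference of 0.46, the smallest of the complex. Atp5if1, the inhibitor that stops the enzyme from running backwards when the membrane potential falls, had 2722 and 1291, a difference of 1.08. Its other probe sets gave 0.78 and -0.54.

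**Figure D2:**
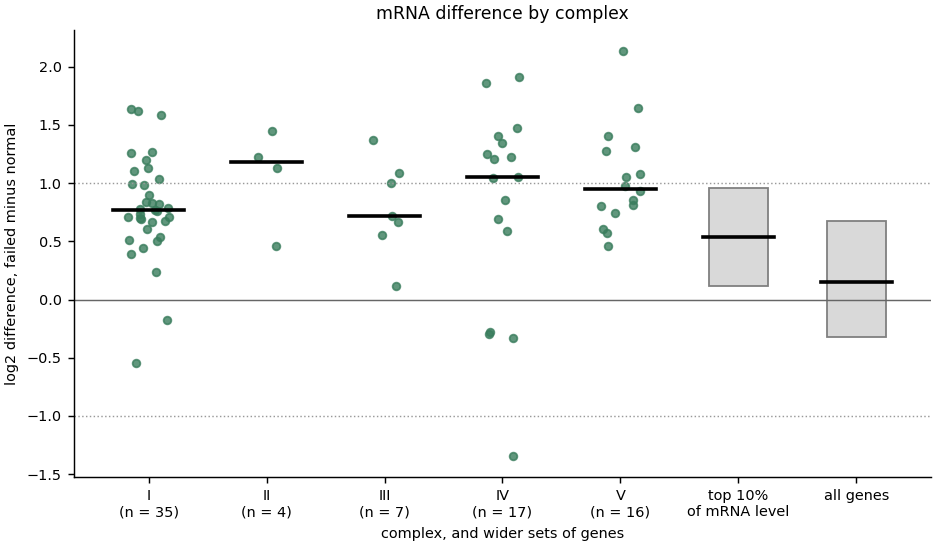
log2 mRNA difference, failed minus normal, of each gene (points) by complex with the median as a black line, beside the median and the quartiles (grey box) of the genes in the top 10% of mRNA level and of all genes, with dotted lines at 2-fold. All medians of the 5 complexes, from 0.72 in complex III to 1.18 in complex II, lie above the 0.54 of the top 10%.

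Assembly factors and biogenesis regulators had smaller median differences than the subunits, and citrate cycle genes one of the same size. These lists were not matched for mRNA level. Assembly factors and carriers summed to 40226 in the failed and 27456 in the normal heart and the regulators to 7639 and 7258, against 493780 and 273442 for the subunits. Over all genes, Spearman's rho of the mRNA difference with mean mRNA level was 0.19. The part of level in the contrast between lists was not tested. Of 55 assembly factors and electron carriers listed, 51 were measured and 46 passed the filter, of which 6 (13%) were at least 2-fold higher and 0 lower, with a median of 0.49. This share was near the 11.8% of all genes passing. Etfa, which brings electrons from fatty acid oxidation to the chain, differed by 1.36, and Cox17, a copper chaperone of complex IV, by 1.16. Coq8a, Uqcc1 and Cox15 lay on the other side, at -0.85, -0.80 and -0.79. Of 18 genes of the citrate cycle and pyruvate dehydrogenase, 15 were measured and all 15 passed the filter. Of these, 6 were at least 2-fold higher (40%, against 11.8% of all genes passing) and 0 lower, with a median of 0.84. Pdha1, the pyruvate dehydrogenase E1 alpha subunit, differed by 1.75 and Suclg2, a subunit of succinyl-CoA ligase, by 1.38. Of 15 regulators of mitochondrial biogenesis, 2 were higher, the nuclear receptor Esrrg (1.76) and the mitochondrial transcription factor Tfb1m (1.03). Nrf1, a transcription factor of nuclear subunit genes, was lower, at -1.36, from 63.6 in the failed and 163 in the normal heart. It was the only regulator at least 2-fold lower (6.67%, against 3.14% of genes passing). That share rests on Nrf1 alone. Its failed value lay below the array median, and it passed the level filter only through its normal value. The coactivator Ppargc1a differed by 0.86. Its relative Ppargc1b and the nuclear receptor Esrra differed by -0.97 and -0.89. The share 2-fold higher, 13.3%, was again near the background. The median of this list was 0.29.

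Subunits encoded in mitochondrial DNA were measured on probe sets of their own for 2 of 13 genes, both of the catalytic core of complex IV. COX1 had 32156 in the failed and 38305 in the normal heart, a difference of -0.25. COX2 had 41241 and 46806, a difference of -0.18. Both were bright on the pre-IP DNA arrays as well, with 25626 and 30274 for COX1 and 32428 and 38998 for COX2 in the failed and normal hearts. Neither was higher in the failed mRNA, but pre-IP DNA, too, was lower in the failed heart on both probe sets. With DNA values this near the mRNA values, a contrast with the nuclear subunits cannot be drawn from them.

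Markers of several cell types and of RNA quality differed between the same pair of mRNA arrays, and their part in the subunit differences was not tested. The summed level of the 79 subunit genes was 493780 in the failed and 273442 in the normal heart. The 8 cardiomyocyte markers measured summed to 133656 in the failed and 112937 in the normal heart, with 3 at least 2-fold higher and 1, Myh6, lower. Fibroblast markers (6 of 6 measured) summed to 41384 and 16834, macrophage markers (6 of 6) to 9539 and 2076, and smooth muscle markers (4 of 4) to 2092 and 4974. Endothelial markers (4 of 5) summed to 8944 and 8361, adipocyte markers (4 of 4) to 386 and 363, and red blood cell markers (3 of 5) to 4347 and 1159. Skeletal muscle markers (6 of 6) summed to 24283 and 32231, nearly all of it from Myh1, while Myh4 was at the floor in the failed heart. The Myh1 probe set was also bright on DNA, with pre-IP intensities of 35002 in the failed and 38423 in the normal heart, above its mRNA intensities of 22459 and 30734. A sum over a marker list cannot tell fewer cells from less RNA per cell. The 3′ over 5′ ratio of the control probe sets was 22.6 in the failed and 11.3 in the normal heart for GAPDH, 12.4 and 18.2 for beta-actin, and 0.447 and 0.148 for hexokinase.

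Relative to pre-IP DNA, the subunit genes had higher H3ac, H4ac and K4me2 and lower K9me2, K20me3 and K27me2 than the average gene in both hearts. The lower values depend on the pre-IP arrays, on which 74 of 79 members were brighter than the median gene. Enrichment is the log2 ratio of the ChIP value to the pre-IP value in that heart. Because the probes lie in transcripts, it describes DNA near the transcribed sequence and not the promoters shown above. The median H3ac enrichment of the members was 0.49 in the failed and 0.70 in the normal heart, against 0.16 and 0.16 over the top 10%. The median H4ac enrichment was 0.25 and 0.43, against 0.15 and 0.22 over the top 10%. The median K4me2 enrichment was 0.57 and 0.52, against 0.04 and 0.00 over the top 10%. For K4me2, 56 of 79 members were above 0 in both hearts, against 36.3% of all genes and 37.1% of the top 10%. For H3ac these were 49 members, against 36.8% of all genes and 42.7% of the top 10%, and for H4ac 48 members, against 37.5% and 47.2%.

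The marks below pre-IP were strongest for K27me2. Its median over the members was -0.64 in the failed and -0.72 in the normal heart, against -0.40 and -0.35 over the top 10%. It was below 0 in both hearts for 61 of 79 members, against 32.1% of all genes and 55% of the top 10%. By complex these were 26 of 35 in complex I, 4 of 4 in complex II, 7 of 7 in complex III, 12 of 17 in complex IV and 12 of 16 in complex V. No member of complexes II, III or V was above 0 in both hearts. K9me2 had medians of -0.36 in the failed and -0.69 in the normal heart, with 49 members below 0 in both, against 33.6% of all genes and 46.6% of the top 10%. K20me3 had medians of -0.38 and -0.54, with 45 members below 0 in both, against 30.8% and 44.9%. K4me3 had medians near 0, at -0.06 and 0.08.

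Among these shares K4me2 stood farthest from the top 10%. After quantile normalization the positive medians were small or below 0. H3ac was -0.04 in the failed and 0.14 in the normal heart, H4ac -0.04 and -0.04, and K4me2 -0.13 and -0.09. K9me2, K20me3 and K27me2 stayed below 0 on that scale, with K27me2 at -0.66 in the failed and -0.57 in the normal heart. On that scale the failed members no longer stood above the wider sets for H3ac and H4ac. The top 10% had -0.02 for H3ac and 0.03 for H4ac, and all genes 0.01 for each. The K4me2 medians of the members lay below the -0.03 of all genes in the failed and the -0.01 in the normal heart. Set against the array median without the pre-IP array, all 8 marks were above 0 in both hearts. For K9me2, K20me3 and K27me2 the members then stood above the wider sets and not below them. Their medians were 0.86, 0.80 and 0.57 in the failed and 0.80, 0.92 and 0.70 in the normal heart, against 0.06 to 0.24 over the top 10% and -0.02 to 0.03 over all genes. The part of the bright pre-IP values in the negative enrichments was not tested further.

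**Figure D3:**
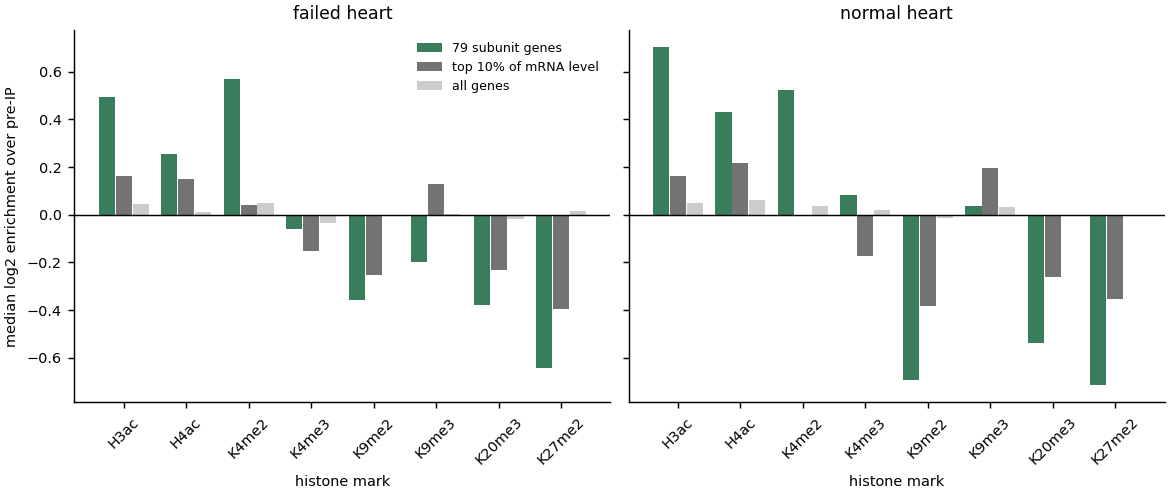
Median enrichment over pre-IP DNA (log2) of the 79 subunit genes, of the genes in the top 10% of mRNA level and of all genes, for the 8 histone marks, with the failed heart on the left and the normal heart on the right. Relative to pre-IP DNA the subunit genes stand above the wider sets for H3ac, H4ac and K4me2 and below them for K9me2, K20me3 and K27me2 in both hearts, while without the pre-IP arrays they stand above them for these 3 marks too.

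The ranks of the members in the failed and the normal heart were related, most for K4me2 and least for K4me3. Spearman's rho between the hearts over the 79 members was 0.659 for K4me2, 0.657 for K27me2, 0.626 for K9me2, 0.609 for H3ac, 0.601 for K9me3, 0.488 for K20me3, 0.478 for H4ac and 0.343 for K4me3. Over all genes the same rho was 0.565 for H4ac, 0.528 for H3ac, 0.512 for K4me2, 0.452 for K9me2, 0.435 for K27me2, 0.301 for K9me3, 0.297 for K20me3 and 0.199 for K4me3. For H4ac the members' rho was thus below that of all genes. These values describe the arrays and carry no p-value, since genes on shared arrays are not independent.

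Ndufa6, an accessory subunit at the base of the peripheral arm of complex I, was among the members with the highest H3ac, H4ac, K4me2 and K4me3 in the mean of both hearts. Its K4me2 enrichment was 1.50 in the failed and 2.22 in the normal heart, and its H4ac 0.97 and 1.66. Its K4me3 was 0.25 in the failed and 1.79 in the normal heart. Its H3ac was 0.41 in the failed heart, below the members' median, and 2.73 in the normal heart, with the most negative H3ac difference of all members, at -2.33. Behind that stood H3ac intensities of 391 in the failed and 1027 in the normal heart and pre-IP intensities of 295 and 155. Ndufs8 had the highest H4ac in the mean of both hearts, with 1.51 in the failed and 1.44 in the normal heart, and 2.03 and 1.05 for K4me2. Ndufc1, an accessory subunit of the membrane arm, had 0.92 and 2.17 for H3ac. In the normal heart all 8 of its enrichments were above 0, beside a pre-IP intensity of 44.5 there and 94.4 in the failed heart.

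The muscle isoforms of complex IV carried H3ac above pre-IP in both hearts, as did 11 of the 17 members of the complex and 49 of all 79 members. Cox8b had an H3ac enrichment of 1.33 in the failed and 1.21 in the normal heart, and a K27me2 enrichment of -0.66 and -1.78. Cox6a2 had 0.81 and 1.44 for H3ac and -1.86 and -1.80 for K27me2. Cox7a1 had 1.06 and 1.68 for H3ac, 1.30 and 2.26 for K4me2 and -1.75 and -0.41 for K27me2. Cox8b thus had the largest positive and Cox7a1 the most negative K27me2 difference of all members, at 1.12 and -1.34. The median H3ac over the 3 muscle forms was 1.06 in the failed and 1.44 in the normal heart, against 0.28 and 0.93 over the 5 widely expressed forms. High H3ac was not particular to the muscle forms. Of complex IV members outside this comparison, Cox5b had 1.55 in the failed and 1.39 in the normal heart and Cox7c 1.21 and 0.97, while Cox7b2 had -0.21 and -0.27. Among the widely expressed forms, Cox7a2l had -1.16 and -0.76 for H3ac and -1.09 and -1.18 for K4me2, among the lowest of all members for both marks.

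The testis gene Cox7b2 stood apart from the other members relative to pre-IP DNA. Its K9me2 enrichment was 2.22 in the failed and 1.81 in the normal heart, its K9me3 1.33 and 1.23 and its K20me3 1.91 and 1.04, the highest mean of both hearts among members for each of these marks. Its H4ac was -1.15 in the failed and -0.96 in the normal heart, the lowest mean. Its pre-IP intensity was 34.9 and 32.5, and its failed K4me2 value stood at the floor. Without the pre-IP arrays its mean enrichments were -0.29 for K9me3 and -0.094 for K20me3.

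Atp5mg, subunit g of the ATP synthase membrane part, had the lowest K9me3, K20me3 and K27me2 of all members in the mean of both hearts. Its K27me2 enrichment was -3.48 in the failed and -3.46 in the normal heart, and its K9me2 -3.62 and -3.15. Without the pre-IP arrays its mean enrichments were 1.54 for K9me3, 1.23 for K20me3, 0.046 for K27me2 and 0.13 for K9me2, and it has 8 named pseudogenes, the most of all members. The K27me2 intensities were 103 in the failed and 104 in the normal heart, beside pre-IP intensities of 1150.5 and 1139. Atp5f1a had K9me2 values of -4.83 in the failed heart, where its ChIP value stood at the floor, and -3.11 in the normal heart. By the Pearson correlation over 16 enrichments with the median profile of all members, Atp5mg (0.95), Cox8b (0.95) and Cox5b (0.94) were nearest to the group in shape. That correlation ignores the size of the values, in which Atp5mg was among the most extreme members. The 8 enrichments of a heart share its pre-IP array.

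**Figure D4:**
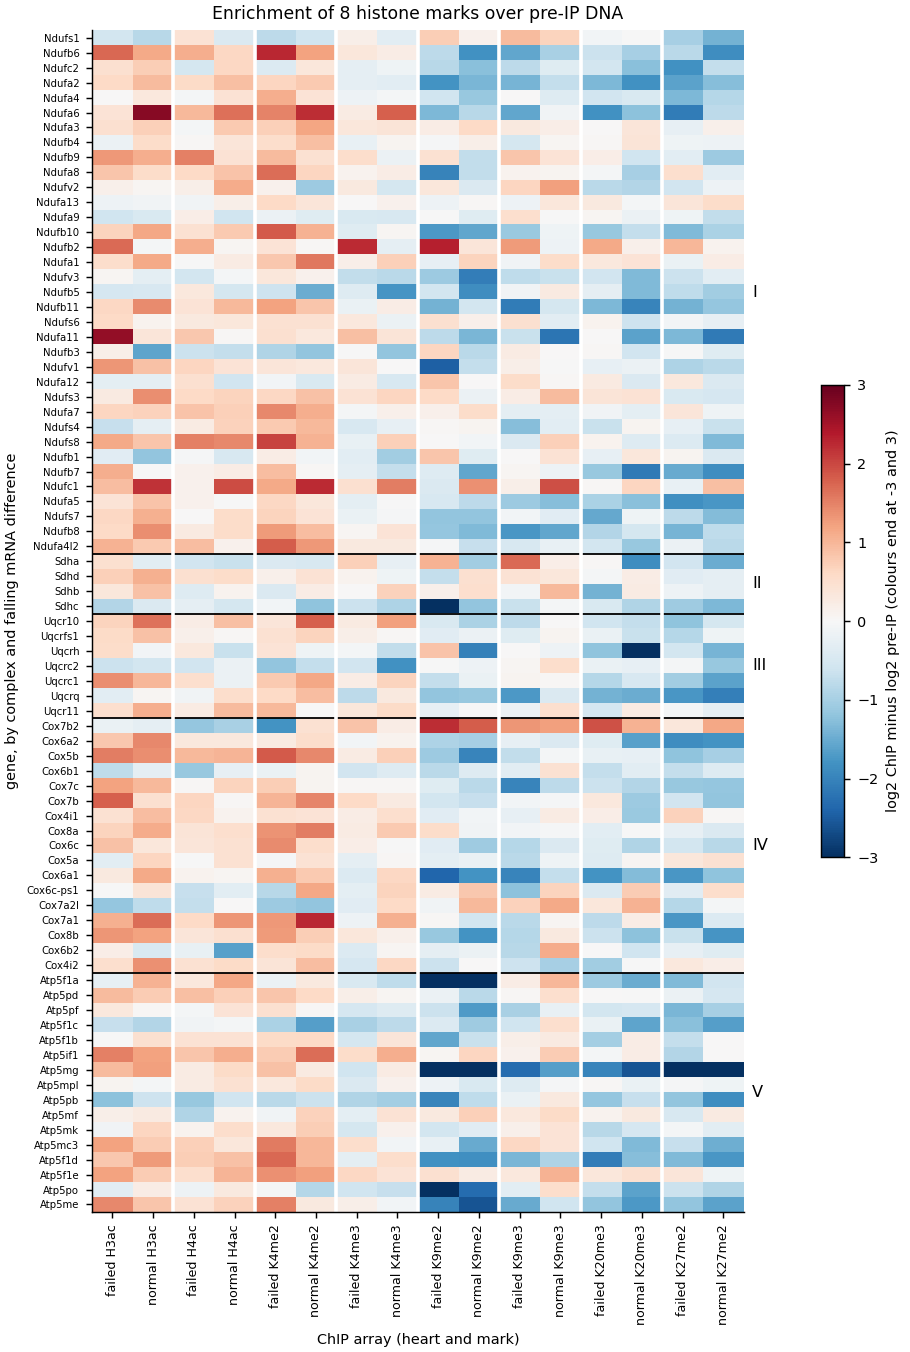
Enrichment of 8 histone marks over pre-IP DNA (log2, colours end at -3 and 3) for each of the 79 genes, ordered by complex and within a complex by falling mRNA difference, with the failed heart left of the normal heart for each mark. H3ac and K4me2 are mostly red and K9me2, K20me3 and K27me2 mostly blue in both hearts, while Cox7b2 is red for K9me2, K9me3 and K20me3.

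Between the hearts, K9me3 had the largest median of per-gene differences over the subunit genes. Its median enrichment was -0.20 in the failed and 0.04 in the normal heart, and the median of the differences was -0.45, against -0.13 over the top 10% and -0.06 over all genes. The difference was below 0 for 55 of 79 members, against 52.6% of all genes and 56% of the top 10%. The shift was uneven over the complexes. It was below 0 for 15 of 16 members of complex V (median -0.56) and 14 of 17 of complex IV (median -0.67), but for 19 of 35 of complex I (median -0.18). Without the pre-IP array the counts were 13 of 16 in complex V, 15 of 17 in complex IV and 27 of 35 in complex I (medians -0.60, -0.64 and -0.43), so that the gap between complexes narrowed. Complex III had 5 of 7 below 0 (median -0.46) and complex II 2 of 4 (median -0.26). Of 71 members past the level filter, the failed heart had 9 that were 2-fold lower or more, against 11.4% of all genes, and 3 were at least 2-fold higher, against 9.14%. The share of large differences was therefore near the background, and the shift was in the bulk of the members. The members' median lay between -0.53 and -0.37 under the settings tried, while that of all genes lay between -0.07 and 0.02.

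Cox6b2 had the most negative K9me3 difference, -1.95, with an enrichment of -0.83 in the failed and 1.12 in the normal heart. Next in order, Cox6c-ps1 differed by -1.90 and Ndufc1 by -1.77, both below the level filter and so not among the 9 counted above. Then came Ndufb11 by -1.55, Ndufa6 by -1.46, Uqcrq by -1.29, Cox6a1 by -1.27 and Cox7c by -1.20. Ndufs8 and Cox8b differed by -1.15 each and Atp5f1c, the gamma subunit of the central stalk, by -1.09. Cox8b had K9me3 intensities of 306 in the failed and 1037 in the normal heart, beside pre-IP intensities of 552 and 840.5. The largest difference the other way was 1.51 for Ndufa11, an accessory subunit of the complex I membrane arm, which had -0.68 in the failed and -2.19 in the normal heart. Ndufa11 also had the largest H3ac difference, 2.28, with 2.63 in the failed and 0.36 in the normal heart.

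**Figure D5:**
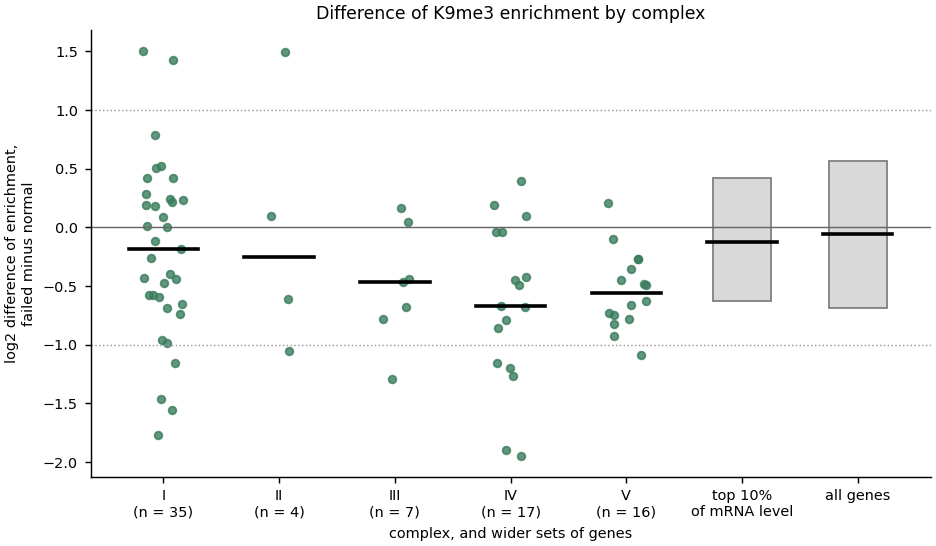
Difference of K9me3 enrichment, failed minus normal (log2), for each gene (points) by complex with the median as a black line, beside the median and the quartiles (grey box) of the genes in the top 10% of mRNA level and of all genes. In complex V 15 of 16 points lie below 0, while those of complex I lie on both sides.

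The other 7 marks had median differences within 0.2 of 0 over the members. H3ac was at least 2-fold higher in the failed heart for 5 and lower for 4 of 74 members past the filter, against 10.7% and 8.65% of genes. H4ac was higher for 4 and lower for 2 of 74, against 4.91% and 6.49%. K4me2 was higher for 5 and lower for 2 of 73, against 11.6% and 6.66%, and K4me3 higher for 2 and lower for 5 of 73, against 8.89% and 9.84%. K9me2 was higher for 10 and lower for 4 of 69, against 16% and 9.3%. K20me3 was higher for 7 and lower for 2 of 70, against 8.91% and 8.56%, and K27me2 higher for 3 and lower for 1 of 69, against 6.83% and 6.38%. The members' shares were near these backgrounds or below them.

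Single genes differed more, and some of these differences went with the pre-IP array. Uqcrh had a K9me2 enrichment of 0.86 in the failed and -2.03 in the normal heart, beside pre-IP intensities of 166 and 370. Ndufb2, a membrane arm accessory subunit, had a K4me3 enrichment of 2.23 in the failed and -0.27 in the normal heart, beside pre-IP intensities of 111 and 229. All 8 enrichments of Ndufb2 were higher in the failed heart. Uqcrh and Ndufb2 were the only members past the filter with a 2-fold pre-IP difference, at -1.16 and -1.04, against 3.53% of genes lower and 3.96% higher. The part of the pre-IP difference in their mark differences was not tested.

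On the pre-IP arrays the subunit genes were brighter than most genes. The median member had 237 in the failed and 249 in the normal heart, and 74 of 79 members lay above the median of all genes. RefSeq lists named pseudogenes for 37 of 78 members, Cox6c-ps1 set aside (47.4%), against 9.75% of 14190 genes. The share over the top 10% of mRNA level, which held 82.3% of the members, is not given here. The excess can therefore not be called particular to the subunits. Atp5mg had the most, with 8, and Ndufb4 had 7. The median pre-IP level (log2) was 8.28 in the failed and 8.59 in the normal heart for members with named pseudogenes and 7.42 and 7.84 for members without named pseudogenes. Near-identical copies can hybridise to the same probes, so a DNA value of such a gene may hold signal from its copies. Members with named pseudogenes had a median mRNA difference of 0.99 and those without one of 0.74. The median K9me3 difference was -0.50 for members with named pseudogenes and -0.39 for members without named pseudogenes.

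Differences in the marks showed little relation to differences in mRNA from gene to gene. Spearman's rho of the mRNA difference with the enrichment difference over the 79 members was -0.20 for K4me2, -0.21 for K27me2, 0.17 for K20me3, 0.12 for K4me3, 0.09 for K9me2, 0.06 for K9me3, -0.06 for H4ac and 0.00 for H3ac. Cox6a2 and Cox8b illustrate this. Cox6a2, with an mRNA difference of 1.86, had an H3ac difference of -0.63, and Cox8b, with -0.30 in mRNA, had one of 0.12. Members with a CCGGAAG match had a median mRNA difference of 1.09 (20 genes) and those without one of 0.77 (51 genes).

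A second probe set tells how far a value recurs within a gene. Of the 79 members, 8 had more than 1 probe set, with 9 unused ones in all. Most unused probe sets were dim on the mRNA arrays. That of Atp5po, the stalk subunit that confers oligomycin sensitivity, gave 14.4 in the failed and 84.1 in the normal heart, a difference of -2.54, where the brighter one gave 0.57. The unused ones of Ndufa9, Ndufv3, Ndufa7 and Uqcrc2 gave differences of -0.67, -0.26, -0.07 and -0.25, while the probe sets used gave 0.84, 0.77, 0.66 and 0.72. For Atp5me the unused one gave 0.74, from 164 in the failed and 98.3 in the normal heart, and the one used gave 0.46.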

How the data were processed

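Affymetrix expression arrays were hybridised with amplified cDNA or DNA of 1 failed and 1 normal heart, 10 arrays each. The values deposited by the authors are linear intensity, 1 per probe set and array. The tool and normalization the authors used to make them are not given in the sources used here, but every array had a mean between 500.03 and 500.17 after trimming 2% of values at each end, while medians ran between 189 and 415. Arrays were brought to a common median of 100, a floor of 10 was applied, and log2 was taken (Python 3.11.15, pandas 2.3.3, numpy 2.4.6, scipy 1.17.1). Of 31099 probe sets, 20826 list a single gene in the platform annotation, 436 several and 9780 were not listed. A gene was represented by whichever of its probe sets was brightest in the mean of both mRNA arrays (log2). Differences were counted at 2-fold among genes whose mean level was at or above the median of all probe sets. Of 1580 member values, 4 stood at the floor: failed K9me2 of Sdhc and Atp5f1a, and normal mRNA and failed K4me2 of Cox7b2. Their enrichments are limits.

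Arrays give no counts, so their number limits the precision. The scripts were tested on simulated data. The members and the lists were chosen with earlier results of these data known. The genes named are the largest and smallest differences per complex, the 5 largest of all, the highest and lowest levels, the paired isoforms and other subunits set by role, and for each mark the 2 highest and 2 lowest enrichments and the largest difference each way. Other members named were picked after their values were seen. Alternatives were the values as deposited, quantile normalization, a floor of 50, the mean over probe sets, no level filter, members past the filter alone, Ndufa4 in complex IV, no pre-IP and, added after seeing the data, centring on the top 10%.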

Additional observations from a re-analysis of the deposited data

How the results depend on the processing

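No paired analysis was possible because each heart had 1 array per assay. Of 177 group values recomputed, 25 changed by 1.5-fold or more and 20 changed sign, 11 of them without the pre-IP array, 7 after quantile normalization and 2 as deposited. The count of members at least 2-fold higher in the failed mRNA was 14 as deposited, 1 after quantile normalization and 6 after centring on the top 10%, where 2 were lower. No share of all genes on these scales is given beside these counts. After quantile normalization the median mRNA difference was 0.59 in complex II and 0.42 in complex IV. The K4me2 median of the failed heart was -0.11 as deposited, against -0.64 over the top 10% and -0.62 over all genes, and -0.13 after quantile normalization, and that of the normal heart was -0.092 after quantile normalization. Without the pre-IP array, medians in the failed and normal hearts were 1.94 and 1.89 for H3ac, 1.43 and 1.93 for H4ac, 1.74 and 1.94 for K4me2, 1.23 and 1.42 for K4me3, 0.86 and 0.80 for K9me2, 1.07 and 1.35 for K9me3, 0.80 and 0.92 for K20me3, and 0.57 and 0.70 for K27me2. Of 398 single-gene values, 59 changed by 1.5-fold or more and 9 that were past 2-fold changed sign, all without the pre-IP array. These 9 mean enrichments became 1.61 for K4me2 of Atp5f1c, 1.23 for K20me3, 0.046 for K27me2, 0.13 for K9me2 and 1.54 for K9me3 of Atp5mg, -0.094 for K20me3 and -0.29 for K9me3 of Cox7b2, 0.60 for K9me3 of Ndufb8 and 0.51 for K27me2 of Uqcrq. The cause was not tested. With 1 array per assay and heart, array effects and the condition cannot be told apart, and signal close to the floor limits the dim members.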
